A study of Homo sapiens with 4 samples.

Results

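LIN28A, LIN28B, TRIM71, IGF2BP1, IGF2BP2, IGF2BP3, HMGA1 and HMGA2 are grouped here as oncofetal genes. The term means genes that are active in early embryonic cells, quiet in most adult tissues and switched on again in many tumours. It does not hold equally for all 8, since HMGA1 stays active in many dividing cells. The 8 genes were taken by symbol from a table of 57905 genes. All 8 were found and passed a filter of a mean of at least 1 FPKM, which 15320 genes met. The cells received an siRNA against KLF11 or a control siRNA and harvested 48 hours later, with 2 libraries of polyadenylated RNA in each group. They are labelled as MG63, a human osteosarcoma line, and no other treatment or genotype is given. KLF11 encodes a zinc finger transcription factor, and the study's title ties low KLF11 to stem cell-like sarcoma cells. Nothing in the labels states whether a group's replicates are separate cultures, so the spread behind each p-value may be technical.

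The 8 genes belong together through the let-7 microRNAs. LIN28A and LIN28B are RNA-binding proteins that hold let-7 precursors back from maturation, with the uridylyl transferases TUT4 and TUT7 adding uridines to them and the exonuclease DIS3L2 degrading the tailed RNA. Mature let-7 in turn represses the mRNAs of LIN28B, HMGA2, TRIM71 and the IGF2BP genes, so that low let-7 and high levels of these genes go together in embryonic cells. TRIM71 is an RNA-binding ubiquitin ligase of pluripotent cells, the IGF2BP proteins bind and stabilise growth-related mRNAs such as those of IGF2 and MYC, and HMGA1 and HMGA2 are small chromatin proteins that bend AT-rich DNA.

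The let-7 sequences are shown because a match to their shared seed was found in all 8 mRNAs. All 12 let-7 and miR-98 entries of the RefSeq table (GRCh38.p14) hold the same seed, bases 2 to 8, given here in capitals.
hsa-let-7a-5p: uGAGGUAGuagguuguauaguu
hsa-let-7d-5p: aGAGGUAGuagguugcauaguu
hsa-let-7g-5p: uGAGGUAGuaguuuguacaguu
hsa-let-7i-5p: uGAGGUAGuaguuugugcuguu

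The reverse complement of that seed, CTACCTC, was counted in the 3′ UTR of the principal transcript of each gene (GENCODE release 29). Each of the 8 genes held at least 1 match, against 9.85% of the 12392 tested genes with such a transcript. TRIM71 held 6 matches, and LIN28B, IGF2BP1 and HMGA2 held 4 each. Only 12 tested genes had 4 or more, and 4 of those 12 were TRIM71, LIN28B, IGF2BP1 and HMGA2. LIN28A, IGF2BP2, IGF2BP3 and HMGA1 held 1 match each. The count depends on the transcript, because other transcripts of HMGA2, IGF2BP1 and IGF2BP2 held none. The first match of each gene whose level changed in these cells is printed with the 15 bases before it and the base after it, the match in capitals.
HMGA2, base 21 of a 3′ UTR of 3003 bases: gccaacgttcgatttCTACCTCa
IGF2BP3, base 560 of 2153: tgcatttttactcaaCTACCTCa
LIN28A, base 905 of 3264: gcacagcctattgaaCTACCTCa
HMGA1, base 960 of 1347: tcctctgttcacaaaCTACCTCt

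KLF11, the siRNA target, measured 5.49 and 6.74 FPKM in KLF11 siRNA libraries, against 12.3 and 12.4 FPKM in control libraries. Its fitted change was -0.92 (SE 0.14, adjusted p = 0.00951). With either control library left out limma called 0 of 15320 genes, with 4461 or 4793 at an unadjusted p under 0.05, so no call given here is kept without both control libraries. The spread then comes from the KLF11 siRNA pair alone, and the lone control is assumed to vary like it. The fitted changes stayed close to their size, at -0.92 and -0.91 for KLF11, -0.79 and -0.96 for IGF2BP3 and -0.77 and -0.89 for HMGA2.

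Genes of osteoblasts were unevenly present in the libraries labelled MG63, and some endoderm and pluripotency genes were high in them. CER1, an endoderm gene, had 958 and 2574 FPKM with KLF11 siRNA and 4430 and 4406 FPKM with control siRNA. TDGF1, a pluripotency gene, had 595 and 592 FPKM with KLF11 siRNA and 603 and 631 FPKM with control siRNA. Whether the cells match their label was not tested. The transcription factors RUNX2 and SP7 and the bone matrix gene IBSP were at or near 0. RUNX2, the master factor of bone-forming cells, had 0.60 and 0.65 FPKM with KLF11 siRNA and 0.03 and 0.02 FPKM with control siRNA. SP7 was listed at 0 with KLF11 siRNA and reached 0.04 FPKM with control siRNA, and IBSP was listed at 0 in every library. Collagen gene COL1A2 and the phosphatase gene ALPL were expressed in all libraries, at 136 and 115 FPKM and at 106 and 79.3 FPKM with KLF11 siRNA, and at 133 and 126 FPKM and at 101 and 89.0 FPKM with control siRNA. SPP1, which encodes the matrix protein osteopontin, rose to 247 and 99.1 FPKM with KLF11 siRNA, against 2.31 and 2.76 FPKM with control siRNA. Of 5 tested osteoblast markers SPP1 rose and COL1A1 fell, and the 9 listed summed to 1217 and 1083 FPKM with KLF11 siRNA and 918 and 878 FPKM with control siRNA. Most of that sum was SPARC, a matrix protein that many other cells make. Of 5 tested neural markers 2 rose and 2 fell, with sums of 237 and 249 FPKM with KLF11 siRNA and 268 and 242 FPKM with control siRNA. MAP2, among these rises, passed the filter through the KLF11 siRNA libraries alone, with a control mean of 0.31 FPKM. None of 7 leukocyte markers passed the filter, and they summed to at most 0.66 FPKM in a library. Among all tested genes 13.5% rose and 21.7% fell.

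Markers of cell states moved beside the 8 genes, and their part in the changes of the 8 genes was not tested. In bulk RNA, fewer cells of a type and less RNA per cell cannot be told apart. The counts below stand beside 13.5% of all tested genes that rose and 21.7% that fell. Of 11 pluripotency markers 8 rose and 0 fell, and they summed to 2811 to 3360 FPKM with KLF11 siRNA and to 1514 to 1516 FPKM with control siRNA. LIN28A, itself a gene of that state, fell in the libraries where POU5F1 rose to 1364 and 1068 FPKM, against 186 and 177 FPKM with control siRNA. Of 10 endoderm markers 2 rose and 5 fell, with sums of 1583 and 3430 FPKM with KLF11 siRNA and 5371 and 5356 FPKM with control siRNA. With quantile normalization 9 pluripotency markers rose and 1 fell, and 0 endoderm markers rose and 6 fell. Without KLF11 siRNA replicate 2, 0 endoderm markers rose and 8 fell. Of 9 epithelial markers 0 rose and 7 fell, with sums of 1169 and 1407 FPKM with KLF11 siRNA and 2536 and 2341 FPKM with control siRNA. Among these falls, CLDN3 passed the filter through the control libraries alone, with a KLF11 siRNA mean of 0.925 FPKM. Of 7 tested mesenchymal markers 5 rose and 1 fell, with sums of 1128 and 1087 FPKM with KLF11 siRNA and 400 and 364 FPKM with control siRNA. Among these rises, PDGFRB and TWIST1 passed the filter through the KLF11 siRNA libraries alone, with control means of 0.465 and 0.935 FPKM.

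The cells given KLF11 siRNA had less IGF2BP3, HMGA2 and LIN28A mRNA and more HMGA1 mRNA than those with control siRNA. IGF2BP3 and HMGA2 moved most, to 0.536 and 0.562 of their control means. LIN28B, TRIM71, IGF2BP1 and IGF2BP2 did not pass the threshold. Thus 1 of the 8 genes rose and 3 fell, in a table where 13.5% of tested genes rose and 21.7% fell. A share of 4 in 8 called stands against 35.2% of all tested genes. The test was limma on log2(FPKM + 1) with Benjamini-Hochberg adjustment over all tested genes and a threshold of 0.05. FPKM is a level per length and per library, and the read depth behind it is unknown. Libraries summed to 591043 and 604498 FPKM with KLF11 siRNA and to 577849 and 582522 FPKM with control siRNA.

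**Figure D1:**
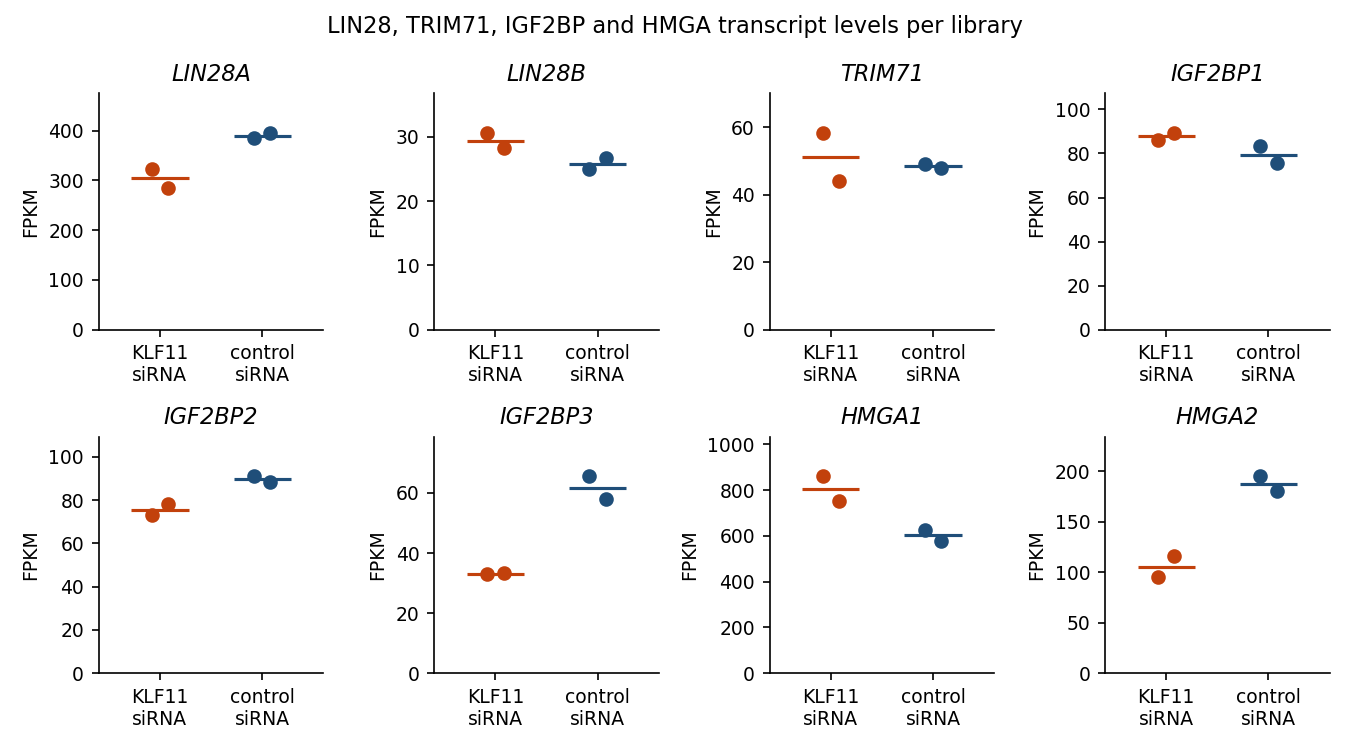
FPKM of the 8 genes in each library (points) with the group mean (line), KLF11 siRNA on the left and control siRNA on the right of each panel, each y axis starting at 0. IGF2BP3 at 32.9 and 33.4 FPKM and HMGA2 at 95.1 and 116 FPKM lie well under their control libraries, while the TRIM71 libraries of the groups overlap.

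All 8 genes were expressed. The order of mean levels with KLF11 siRNA was HMGA1, LIN28A, HMGA2, IGF2BP1, IGF2BP2, TRIM71, IGF2BP3 and LIN28B. In control libraries IGF2BP2 stood above IGF2BP1, and IGF2BP3 above TRIM71. No gene's libraries overlapped those of its neighbour in either order. Among tested genes, the lowest percentile of a library was 98.2 for LIN28A and 72.8 for LIN28B, the least abundant of the 8.

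LIN28A, the form typical of pluripotent cells, measured 323 and 285 FPKM in KLF11 siRNA libraries, against 385 and 396 FPKM in control libraries. Both KLF11 siRNA libraries lay below both controls, and replicate 2 was the lower of them. The KLF11 siRNA mean of 304 ± 27.2 FPKM was 22.1% below the control mean of 390 ± 7.73 FPKM (SD, n = 2 each; log2 change -0.36, SE 0.10, adjusted p = 0.0399 in limma). The call was close to the threshold and did not survive scaling by median of ratios, where the log2 change was -0.24 and the adjusted p = 0.134 in limma. It was also lost without KLF11 siRNA replicate 2 (adjusted p = 0.0709). Testing all genes with no filter gave an adjusted p of 0.111 in limma, and eBayes without a trend one of 0.0833. The replicate number as a block gave an adjusted p of 0.0521.

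LIN28B, which many tumours express in place of LIN28A, measured 30.6 and 28.2 FPKM in KLF11 siRNA libraries and 25.0 and 26.7 FPKM in control libraries. Its libraries did not overlap, yet the difference did not pass (log2 change 0.18, 95% interval -0.07 to 0.43, adjusted p = 0.201 in limma). The balance of the LIN28 pair differed between groups. LIN28A was 10.6 and 10.1 times as abundant as LIN28B in KLF11 siRNA libraries, against 15.4 and 14.8 times in control libraries. LIN28B made up 8.65% and 9.01% of summed LIN28 FPKM with KLF11 siRNA and 6.10% and 6.31% with control siRNA.

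TRIM71 had 58.4 and 44.1 FPKM in KLF11 siRNA libraries and 49.2 and 47.9 FPKM in control libraries. Replicate 1 with KLF11 siRNA was above both controls and replicate 2 below both (log2 change 0.06, 95% interval -0.31 to 0.43, adjusted p = 0.762 in limma). The sign turned to -0.14 without KLF11 siRNA replicate 1.

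Of the IGF2BP genes, IGF2BP3 carried the change. It measured 32.9 and 33.4 FPKM in KLF11 siRNA libraries, against 65.5 and 58.1 FPKM in control libraries. The 2 KLF11 siRNA libraries were nearly equal and far below both controls. The KLF11 siRNA mean of 33.1 ± 0.375 FPKM was 46.4% below the control mean of 61.8 ± 5.26 FPKM (SD, n = 2 each; log2 change -0.88, SE 0.10, adjusted p = 0.00508 in limma). It stayed called in every fit that kept all 4 libraries, with log2 changes of -0.93 to -0.76 and adjusted p of 0.00332 to 0.0357. MALSU1, whose gene overlaps IGF2BP3 on the opposite strand, was at 28.9 and 28.1 FPKM with KLF11 siRNA and 26.4 and 30.5 FPKM with control siRNA, and the strand setting of the counting is not given in the sources used here.

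IGF2BP2 had 72.9 and 78.2 FPKM in KLF11 siRNA libraries and 90.9 and 88.4 FPKM in control libraries. The libraries did not overlap, but the difference did not pass after adjustment (log2 change -0.24, unadjusted 95% interval -0.46 to -0.03, adjusted p = 0.073 in limma). IGF2BP1, which binds MYC and ACTB mRNA, had 86.1 and 89.4 FPKM in KLF11 siRNA libraries and 83.4 and 75.5 FPKM in control libraries, also without passing (log2 change 0.14, 95% interval -0.08 to 0.37, adjusted p = 0.264 in limma). The shares within the family differed between groups. IGF2BP3 gave 17.1% and 16.6% of the summed IGF2BP FPKM with KLF11 siRNA, against 27.3% and 26.2% with control siRNA. IGF2BP1 gave 44.9% and 44.5% with KLF11 siRNA, against 34.8% and 34.0% with control siRNA, where IGF2BP2 was the most abundant form. IGF2BP2 kept a like share, 38.0% and 38.9% with KLF11 siRNA and 37.9% and 39.8% with control siRNA.

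The HMGA pair moved in opposite directions. HMGA2, a fetal chromatin protein known in mouse to switch on Igf2bp2, measured 95.1 and 116 FPKM in KLF11 siRNA libraries, against 195 and 180 FPKM in control libraries. Both KLF11 siRNA libraries lay below both controls, replicate 1 further than replicate 2. Means were 105 ± 14.5 and 188 ± 10.5 FPKM (SD, n = 2 each), a fall of 43.8% (log2 change -0.83, SE 0.12, adjusted p = 0.00855 in limma). It too stayed called in every fit that kept all 4 libraries, with log2 changes of -0.88 to -0.71. RPSAP52, a pseudogene transcribed from the opposite strand of HMGA2, was at 0.03 and 0.07 FPKM with KLF11 siRNA and 0.45 and 0.24 FPKM with control siRNA.

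HMGA1, which stays active in many dividing cells, measured 860 and 750.4 FPKM in KLF11 siRNA libraries, against 625 and 578 FPKM in control libraries. Both KLF11 siRNA libraries lay above both controls. Means were 805 ± 77.5 and 602 ± 33.6 FPKM (SD, n = 2 each), a rise of 33.8% (log2 change 0.42, SE 0.11, adjusted p = 0.0374 in limma). The rise did not pass with no filter (adjusted p = 0.119), with eBayes without a trend (adjusted p = 0.0693), with TPM scaling (log2 change 0.37, adjusted p = 0.0638), with quantile normalization (log2 change 0.18, adjusted p = 0.171) or without KLF11 siRNA replicate 1 (log2 change 0.32, adjusted p = 0.0877). HMGA1 has 8 processed pseudogenes in the table that can share its reads, and the highest of their values in any library was 1.47 FPKM.

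HMGA1 was 9.04 and 6.49 times as abundant as HMGA2 in KLF11 siRNA libraries, against 3.21 and 3.21 times in control libraries. HMGA2 thus gave 9.96% and 13.4% of summed HMGA FPKM with KLF11 siRNA and 23.8% and 23.8% with control siRNA. A ratio of genes within a library is untouched when that library is scaled by a single factor, as in TPM or median-of-ratios scaling. Quantile normalization is no such factor and can move the ratios. On the log2 scale the HMGA2 to HMGA1 ratio differed by -1.26 between groups, that of IGF2BP1 to IGF2BP3 by 1.04, that of IGF2BP2 to IGF2BP3 by 0.65, that of LIN28B to LIN28A by 0.55 and that of IGF2BP1 to IGF2BP2 by 0.39. In each of these 5 ratios the groups did not overlap. For single genes that held in 73.4% of all tested genes, and the like share over other pairs of genes was not computed. The IGF2BP ratios share genes, so the 5 ratios are not independent. With 2 libraries a group, the smallest two-sided p of an exact permutation test is 0.333, so the ratios are given with no test.

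**Figure D2:**
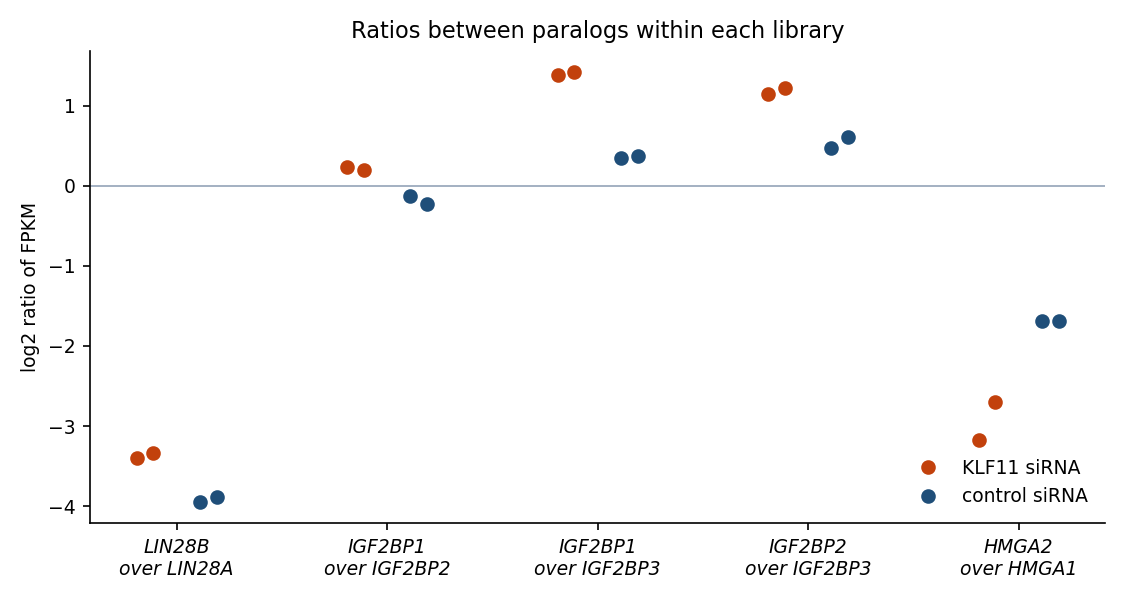
Log2 ratio of FPKM between related genes in each library (points), KLF11 siRNA left of control siRNA at each position, with a line at 0 for equal levels. The groups do not overlap in any of the 5 ratios, which are not independent, and the HMGA2 to HMGA1 ratio differs most, by -1.26. For single genes, 73.4% of all tested genes had groups that do not overlap.

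The median change of all tested genes was -0.11, and the 8 genes lay on both sides of it, with a median of -0.09. Median-of-ratios scaling moved the median of all genes to -0.01 and turned a split of 2071 genes higher and 3329 lower into 2728 higher and 2664 lower. None of the 8 genes changed sign under TPM scaling, median-of-ratios scaling or quantile normalization. Relative to the median of all genes, IGF2BP3 and HMGA2 were lower by 0.77 and 0.72 log2 units, LIN28A was lower by 0.25 and HMGA1 was higher by 0.53. The groups were fully separated in 7 of the 8 genes, TRIM71 being the exception, against 73.4% of all tested genes.

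**Figure D3:**
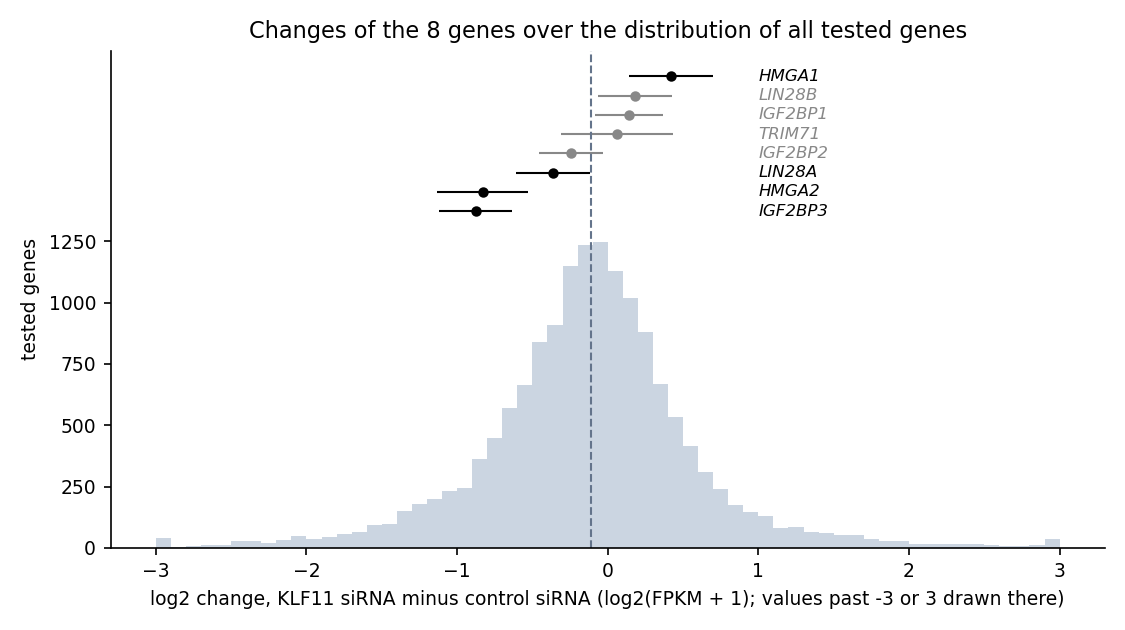
Log2 change of the 8 genes with unadjusted 95% limma intervals (points and bars, black where the adjusted p is under 0.05) above a histogram of the log2 change of all 15320 tested genes, with a dashed line at their median of -0.11. IGF2BP3 and HMGA2 lie near -0.9 and -0.8, while HMGA1 is the only one of the 8 called above 0.

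Promoter sequences of IGF2BP3, which fell, and of HMGA1, which rose, are shown because KLF and SP factors bind GC boxes and CACCC boxes. The RefSeq table (GRCh38.p14) held promoters of 5 of the 8 genes, 250 bases before to 50 bases after each start. GC boxes were counted as GGGCGG or CCGCCC and CACCC boxes as CACCC or GGGTG, and matches may overlap. Of 35116 promoters of the same length, 45% held a GC box and 59.9% a CACCC box. The IGF2BP3 promoter held 0 GC boxes and 1 CACCC box. The upstream HMGA1 promoter held 5 GC boxes and 2 CACCC boxes, and the downstream HMGA1 promoter held neither. Among genes that did not pass, the upstream promoter of IGF2BP2 held 7 GC boxes and 3 CACCC boxes, that of LIN28B 2 and 2, and that of TRIM71 0 and 2, while the downstream promoters of IGF2BP2 and LIN28B held neither. These matches are letters in a window, not measured binding. Matches are in capitals.
IGF2BP3, chr7:23470442-23470741, minus strand: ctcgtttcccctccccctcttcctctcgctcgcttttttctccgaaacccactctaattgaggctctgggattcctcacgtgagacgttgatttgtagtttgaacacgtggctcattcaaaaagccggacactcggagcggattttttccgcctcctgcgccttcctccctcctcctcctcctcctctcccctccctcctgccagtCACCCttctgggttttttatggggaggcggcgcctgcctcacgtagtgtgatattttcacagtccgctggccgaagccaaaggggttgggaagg
HMGA1, chr6:34236623-34236922, plus strand: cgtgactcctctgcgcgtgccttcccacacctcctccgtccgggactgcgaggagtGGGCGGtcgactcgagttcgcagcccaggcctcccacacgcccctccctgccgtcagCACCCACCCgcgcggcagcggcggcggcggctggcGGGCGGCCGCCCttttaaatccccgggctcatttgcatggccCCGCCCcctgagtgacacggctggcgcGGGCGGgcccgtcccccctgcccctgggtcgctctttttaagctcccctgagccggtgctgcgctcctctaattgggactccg

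The factors that act on let-7 were read from a list of 23 genes for microRNA maturation, tailing and silencing, all of them tested. Of these 2 rose and 7 fell, with a median log2 change of -0.06. The share called was 39.1%, near the 35.2% of all tested genes. Falls also outnumbered rises among all tested genes, at 21.7% against 13.5%. Falls outnumbered rises with TPM scaling (1 rose and 7 fell) and quantile normalization (3 rose and 6 fell), but not with median-of-ratios scaling (4 rose and 3 fell). Without KLF11 siRNA replicate 1, 0 rose and 5 fell, and with no filter 0 rose and 2 fell. TUT4 and DIS3L2, which act on let-7 precursors held by LIN28, were among those that fell. TUT4, listed as ZCCHC11, had 28.9 and 39.2 FPKM in KLF11 siRNA libraries, against 58.4 and 58.9 FPKM in control libraries (log2 change -0.78, SE 0.15, adjusted p = 0.018 in limma). DIS3L2 had 6.31 and 6.66 FPKM in KLF11 siRNA libraries, against 11.3 and 11.3 FPKM in control libraries (log2 change -0.72, adjusted p = 0.0114 in limma). Both stayed called under the 3 other scalings. With no filter TUT4 lost its call (adjusted p = 0.0739 in limma) and DIS3L2 kept it (adjusted p = 0.0420 in limma). TUT7, listed as ZCCHC6, had 4.70 and 5.14 FPKM with KLF11 siRNA and 6.94 and 6.52 FPKM with control siRNA, and did not pass (adjusted p = 0.0783 in limma).

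Of the enzymes that cut let-7 precursors, DROSHA, the nuclear one, fell to 40.0 and 38.3 FPKM with KLF11 siRNA, against 51.2 and 49.7 FPKM with control siRNA. DICER1, the cytoplasmic one, did not pass, at 22.9 and 19.1 FPKM with KLF11 siRNA and 20.7 and 23.0 FPKM with control siRNA. PRKRA, a partner of Dicer, fell to 22.9 and 21.0 FPKM with KLF11 siRNA, against 33.8 and 34.1 FPKM with control siRNA. DDX17, SND1 and TNRC6C also fell. With median-of-ratios scaling only TUT4, DIS3L2 and PRKRA kept their falls, so those of DROSHA, DDX17, SND1 and TNRC6C were lost. With no filter only DIS3L2 and PRKRA kept theirs. AGO1, an Argonaute protein that carries mature microRNAs, and HNRNPA1, which binds the let-7a precursor, rose. AGO1 had 26.8 and 21.3 FPKM with KLF11 siRNA and 16.4 and 15.8 FPKM with control siRNA.

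**Figure D4:**
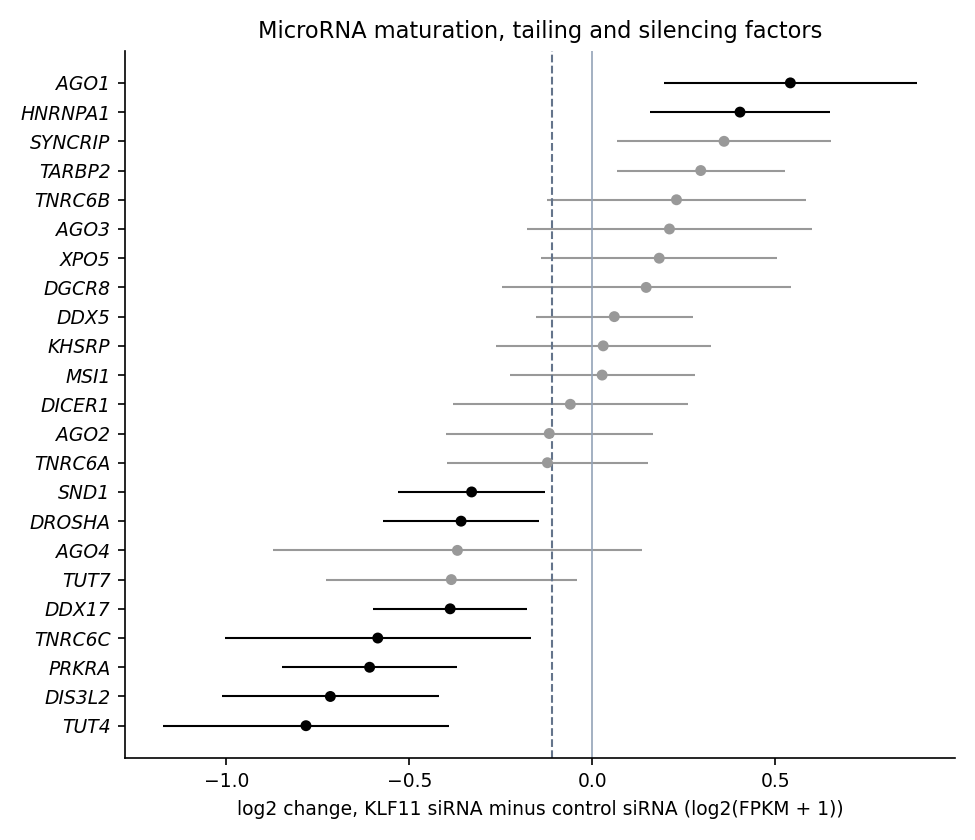
Log2 change with unadjusted 95% limma intervals for 23 factors of microRNA maturation, tailing and silencing (black where the adjusted p is under 0.05), with lines at 0 and, dashed, at the median of all tested genes. TUT4 at -0.78 and DIS3L2 at -0.72 lie lowest, and AGO1 at 0.54 highest.

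The let-7 genes themselves were hardly seen in these libraries of polyadenylated RNA, which do not measure mature microRNAs. Of 14 let-7 hairpins and host transcripts in the table, 5 were listed at 0 in every library and 1 passed the filter. That was MIRLET7I, which passed through the control libraries alone, listed at 0 in both KLF11 siRNA libraries and at 5.72 and 4.37 FPKM in control libraries. A hairpin row can hold reads of a longer primary transcript and says nothing of the mature let-7i printed above. MIRLET7G was at 0.96 and 1.03 FPKM with KLF11 siRNA and at 0 and 1.01 FPKM with control siRNA. MIRLET7D, also under the filter, was listed at 0 in both KLF11 siRNA libraries and at 1.08 and 2.07 FPKM in control libraries. The host transcripts MIRLET7BHG, MIR99AHG, MIR100HG and MIRLET7DHG did not exceed 0.84 FPKM in any library. Of these MIR100HG had 0.58 and 0.72 FPKM with KLF11 siRNA and 0.12 and 0.12 FPKM with control siRNA.

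Well-known let-7 targets other than the 8 genes moved both ways. Of 29 tested, 9 rose and 4 fell, with a median log2 change of 0.09. The share called was 44.8%, against 35.2% of all tested genes, of which 13.5% rose and 21.7% fell. MYC, a growth-promoting transcription factor, rose to 53.5 and 34.3 FPKM with KLF11 siRNA, against 8.74 and 7.90 FPKM with control siRNA. CCND1, a cyclin of the G1 phase, rose to 114 and 117 FPKM with KLF11 siRNA, against 68.2 and 58.4 FPKM with control siRNA. CDK6, a kinase of the G1 phase, fell to 15.2 and 18.4 FPKM with KLF11 siRNA, against 41.7 and 38.1 FPKM with control siRNA. NR6A1, an orphan nuclear receptor of early embryos, fell to 34.2 and 37.1 FPKM with KLF11 siRNA, against 65.4 and 64.0 FPKM with control siRNA. DLC1, a GTPase-activating protein, also fell.

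Across all tested genes with an annotated 3′ UTR, the share of genes that rose was lower where there were more let-7 seed matches. It was 14.8% of 11172 genes with 0 matches, 13.1% of 1080 with 1, 7.21% of 111 with 2 and 3.45% of 29 with 3 or more, which is 1 gene. The share that fell was 23.1%, 23.8%, 29.7% and 31.0% in the same order. The share called in either direction changed little, at 37.9%, 36.9%, 36.9% and 34.5%. The median log2 change had no such order, at -0.11, -0.11, -0.16 and -0.12. The median length of the 3′ UTR grew with the matches, at 982, 2619, 4708 and 5954 bases. Among 503 genes with 0 matches and a 3′ UTR of at least 5123 bases, the median length of genes with 2 or more matches, 15.5% rose and 23.3% fell. Of the genes with 2 or more matches 6.43% rose and 30.0% fell. The 503 genes had longer 3′ UTRs, with a median of 6578 bases. Whether 3′ UTR length or the matches bear on these shares was not tested. The groups of genes differ in size and were not tested against each other, and 4 of the 29 genes are TRIM71, LIN28B, IGF2BP1 and HMGA2.

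**Figure D5:**
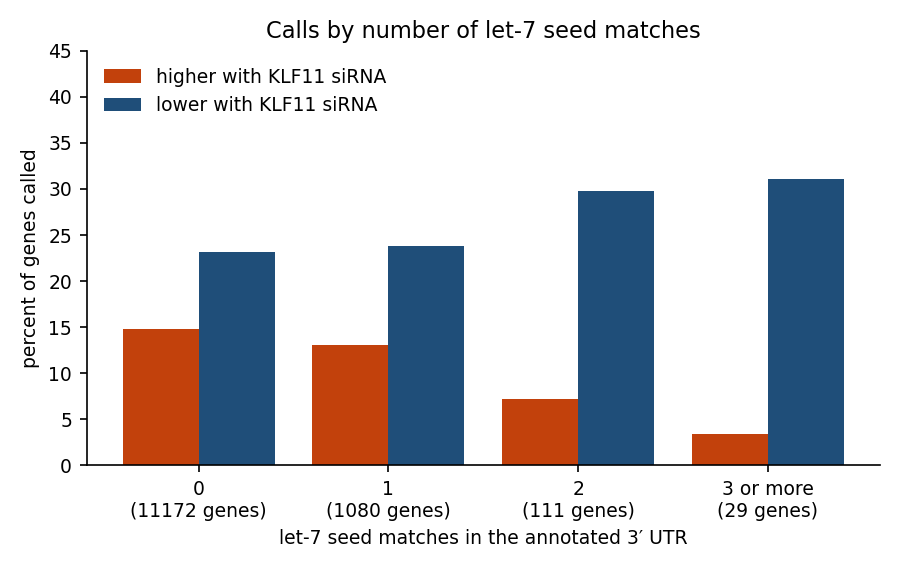
Percent of tested genes called higher (orange) and lower (blue) with KLF11 siRNA, by the number of let-7 seed matches in the 3′ UTR of the principal transcript. The share called higher is 14.8% with 0 matches and 3.45% with 3 or more, which is 1 of 29 genes.

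The mRNAs that IGF2BP proteins are known to bind rose more often than they fell, in that 6 of 16 tested rose and 1 fell, with a median log2 change of 0.25, against 13.5% and 21.7% of all tested genes. CD44, a cell adhesion receptor, rose to 26.1 and 15.3 FPKM with KLF11 siRNA, against 2.50 and 1.35 FPKM with control siRNA. PDGFA, a growth factor, rose to 44.6 and 31.7 FPKM with KLF11 siRNA, against 8.83 and 7.31 FPKM with control siRNA. MYC, LEF1 and SIRT1 were also among the rises, and FSCN1 was the fall. LEF1 passed the filter through the KLF11 siRNA libraries alone, at 7.25 and 3.82 FPKM, and had 0.81 and 0.71 FPKM in control libraries. With a filter of a mean of 5 FPKM, 5 mRNAs of the list rose and 1 fell. IGF2, the mRNA that named the family, was low in every library, at 1.15 and 2.69 FPKM with KLF11 siRNA and 4.25 and 4.10 FPKM with control siRNA, and did not pass (adjusted p = 0.0661 in limma). Of 16 other mRNA-binding proteins, 5 rose and 2 fell, with a median log2 change of 0.18. The share called was 43.8%, against 35.2% of all tested genes. Under median-of-ratios scaling 6 rose and 0 fell, with eBayes without a trend 3 rose and 0 fell, and with no filter none of the 16 passed. YBX1, a cold shock domain protein like LIN28, rose to 729 and 636 FPKM with KLF11 siRNA, against 450 and 450 FPKM with control siRNA.

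Other high mobility group genes also moved both ways, as HMGA1 and HMGA2 did. Of 12 tested, 3 rose, 2 fell and 7 did not pass, with HMGB1, HMGB2 and HMGN5 as the rises and HMGN4 among the falls. The share called was 41.7%, near the 35.2% of all tested genes. With median-of-ratios scaling 4 rose and 2 fell, and with quantile normalization 2 rose and 3 fell. The rises numbered 0 without KLF11 siRNA replicate 1, 0 with no filter and 1 with eBayes without a trend. HMGB1, an abundant DNA-bending protein, had 390 and 364 FPKM with KLF11 siRNA and 275 and 293 FPKM with control siRNA. HMGN4, a nucleosome-binding protein, had 21.5 and 22.2 FPKM with KLF11 siRNA and 33.4 and 36.7 FPKM with control siRNA. Of 17 tested genes of the fetal growth axis and other oncofetal genes, 5 rose and 4 fell. The share called was 52.9%, against 35.2% of all tested genes. DLK1, an imprinted fetal gene, fell to 0.27 and 1.27 FPKM with KLF11 siRNA, against 20.4 and 18.7 FPKM with control siRNA. DLK1 passed the filter through the control libraries alone, with a KLF11 siRNA mean of 0.77 FPKM. PEG10, an imprinted placental gene, fell to 101 and 94.8 FPKM with KLF11 siRNA, against 499 and 499.6 FPKM with control siRNA. MDK, the growth factor midkine, and SALL4, a zinc finger factor of embryonic cells, were the other falls. IRS1 and IRS2, adaptors of insulin and IGF receptors, GPC3, AFP and PLAGL1 rose. AFP passed the filter through the KLF11 siRNA libraries alone, at 4.41 and 1.11 FPKM, and was listed at 0 in both control libraries. With a filter of a mean of 5 FPKM 2 genes of the list rose and 4 fell, and with no filter 1 rose and 4 fell.

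By the Euclidean distance of centred log2(FPKM + 1) values over the 4 libraries, the 5 tested genes most like IGF2BP3 were TMEM37, AMN1, HSPB8, CRAT and SLC44A3. Their log2 changes ran from -0.88 to -0.86 and their distances from 0.015 to 0.043. With 4 libraries such likeness means little more than a fall of the same size.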

How the data were processed

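Polyadenylated RNA was sequenced in 4 libraries, and the tools that the submitters' processing notes name are RSEM 1.3.1 and Trim Galore 0.5.0, with build hg19. The authors deposited FPKM values, which are normalised for gene length and library size, so read depth is unknown. No source used here gives the aligner, annotation release or strand setting. RSEM divides reads among matching transcripts. Groups came from sample titles, and 0 columns were left without a sample. The 8 genes were matched by symbol.

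All tested genes were fitted with limma 3.58.1 in R 4.3.3 (lmFit, eBayes with a trend) on log2(FPKM + 1), without a block, two-sided. The pseudocount shrinks fold changes of low genes. Fits were tested on simulated data. The members and the 15 gene lists, of which 1 is the members and 7 are cell markers, were chosen with earlier results of these data known. Named are the 8 members, KLF11, up to 4 genes of smallest p per list and the 5 nearest patterns. Also named, and chosen after their values were seen, are genes behind small counts, TUT7, DROSHA, DICER1, MIRLET7D, MIRLET7G, CCND1, IGF2, CER1 and TDGF1. Some genes that this rule names are not reported here. The let-7 and promoter counts were also added after values were seen. Alternatives were pseudocounts, filters, scalings, eBayes without a trend, the replicate block and each library left out. Figures were drawn with matplotlib 3.10.9.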

Additional observations from a re-analysis of the deposited data

How the results depend on the processing

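LIN28A and HMGA1 each kept their call in 6 of 13 alternatives. Among fits of all 4 libraries, 0 of the 8 genes were called higher with no filter, with TPM scaling, with quantile normalization and with eBayes without a trend, and 1 in the others. The number called lower was 2 or 3 in fits of all 4 libraries, and with a library left out 0 to 3 were called lower and 0 to 1 higher. IGF2BP3 and HMGA2 lost their calls only without a control library, among the 13 alternatives. The sign of TRIM71 turned without KLF11 siRNA replicate 1 (-0.14), in a range of -0.14 to 0.26 over left-out libraries. With no filter 34232 genes were tested, and the low genes also entered the fit of the spread. Limma then called 887 genes higher and 1251 lower, against 2071 and 3329. Of the listed genes it called 10 higher and 11 lower, against 29 and 21. With a library left out, counts over all genes ran from 0 to 2291 higher and 0 to 3813 lower, and over the listed genes from 0 to 32 higher and 0 to 21 lower. COL1A2 turned sign with median-of-ratios scaling (0.072) and without KLF11 siRNA replicate 2, in a range of -0.17 to 0.073 over left-out libraries, and SPARC with quantile normalization (-0.040). TPM scaling cannot move the 5 paralog ratios. The cause of these changes was not tested. The labels' replicate numbers are shared by the groups. Over all tested genes, same-numbered libraries did not deviate together (correlation -0.07). A single correlation with 2 libraries a group cannot decide whether same-numbered libraries share a culture or a day. The replicate block gave 1707 genes higher and 2644 lower and left 3 of the 8 genes called. Depth is unknown, so no limit for low genes can be given.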

Other observations

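Other genes with at least 4 let-7 seed matches in the 3′ UTR were chosen by their sequence and not by their values. HEMK1 and NR6A1 held 5 matches each, and HIC2, IGDCC3, LIMD2, SMC1A and ZBTB37 held 4 each. In limma HEMK1, HIC2 and NR6A1 fell, and LIMD2, ZBTB37, IGDCC3 and SMC1A did not pass. HEMK1, a methyltransferase gene, had 5.17 and 7.91 FPKM with KLF11 siRNA, against 13.4 and 11.8 FPKM with control siRNA (adjusted p = 0.028 in limma). HIC2, a zinc finger repressor, had 12.8 and 13.4 FPKM with KLF11 siRNA, against 18.6 and 17.2 FPKM with control siRNA (adjusted p = 0.0323 in limma). IGDCC3 had 17.7 and 10.0 FPKM with KLF11 siRNA and 8.26 and 6.79 FPKM with control siRNA, and did not pass (adjusted p = 0.0814 in limma). SMC1A, a subunit of cohesin, had 76.2 and 71.1 FPKM with KLF11 siRNA and 66.1 and 53.9 FPKM with control siRNA and did not pass either (adjusted p = 0.115 in limma).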
